A study of Mus musculus with 34 samples.

Results

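The cytosolic ribosomal protein genes were followed across poly(A) RNA-seq libraries of embryonic mouse lung. The genes were the rows of the deposited count table whose mouse symbol starts with Rpl or Rps and that are protein-coding in the annotation, without the Rps6k kinases and the -ps pseudogenes. This gave 84 of 21789 deposited genes. Of these, 46 encode core proteins of the large subunit and 31 core proteins of the small subunit. The other 7 are the paralogues or copies Rpl3l, Rpl22l1, Rpl36al, Rpl7l1, Rps27l and Rps27rt, and Rps19bp1, which carries the prefix but encodes a nucleolar partner of Rps19. Rpl10l and Rpl39l also meet the rule in the annotation but have no row in the table used here. In all, 83 of the 84 genes passed the filter on low counts, and Rpl3l, a muscle-type relative of Rpl3 that did not, with at most 0.622 CPM in any library.

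The study held 34 libraries in 10 groups. Lungs with global expression of Lin28A were taken at E12.5 (n = 3), E14.5 (n = 4), E16.5 (n = 3) and E18.5 (n = 5), and control lungs at the same days (n = 3, 3, 3 and 5). At E18.5 there were also lungs with Lin28A in mesenchymal cells (n = 2) and in epithelial cells (n = 3). Doxycycline was in the drinking water of every group, controls included, at 1 g/L from E0.5. The titles tag the global lungs with Vasa, the mesenchymal ones with Wt1 and the epithelial ones with Nkx2.1, and the labels describe neither the alleles nor the genotype of the controls. Replicates are not stated to be separate embryos or litters, so each p-value measures the spread between these libraries.

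A ribosome has a large subunit, which joins amino acids, and a small subunit, which reads the mRNA, and each holds ribosomal RNA and one copy of most of its proteins. Cells make these proteins in matched amounts, and tissues that grow fast need many ribosomes. Many of the mRNAs begin with a run of pyrimidines, the TOP element, through which mTOR and Larp1 control their translation. Lin28A binds RNA. It keeps let-7 precursors from becoming mature microRNAs, and in human stem cells it is known to bind many mRNAs, ribosomal protein mRNAs among them.

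The annotated starts of 6 genes that the results turn on are shown first, because start-site pyrimidines are the feature for which these genes are best known. Sequences are RefSeq promoter entries on GRCm38.p6, 30 bases on each side of the annotated start, with runs of 8 or more C or T on the coding strand in capitals.
Rpl12 (chr2:32961682-32961741, plus strand): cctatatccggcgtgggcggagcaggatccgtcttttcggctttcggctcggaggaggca
Rpl27 (chr11:101442215-101442274, plus strand): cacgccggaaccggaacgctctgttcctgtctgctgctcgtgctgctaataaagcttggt
Rps6 (chr4:86857338-86857397, minus strand): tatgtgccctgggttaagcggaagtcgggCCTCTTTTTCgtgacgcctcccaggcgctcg
Rpl15 (chr14:18270957-18271016, minus strand): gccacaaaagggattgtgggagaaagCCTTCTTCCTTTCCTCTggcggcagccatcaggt
Rpsa (chr9:120127736-120127795, plus strand): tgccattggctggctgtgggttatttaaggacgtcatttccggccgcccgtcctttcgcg
Rps19 (chr7:24884562-24884621, plus strand, the first of its entries): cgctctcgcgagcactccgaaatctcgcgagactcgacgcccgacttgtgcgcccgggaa
A promoter entry was found for 64 of the 84 genes. A run of 8 or more pyrimidines lay in this window for 34 of the 64 genes (53.1%), against 25.8% of all genes in the promoter table. In Rps6 the run was 10 bases long and in Rpl15 it was 17, and in the other 4 windows shown no run was that long.

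Upstream, the word CCGGAAG, which ETS factors such as Gabpa bind, was searched on both strands of the whole entry, from 250 bases before to 50 bases after the start. It occurred in 25 of the 64 genes (39.1%), against 9.93% of all genes in the promoter table and 16.8% of the protein-coding genes in the count table. The stretches around it in 3 genes of the results are shown with the word in capitals, written as CTTCCGG where it lies on the other strand.
Rps6 (chr4:86857436-86857475, minus strand): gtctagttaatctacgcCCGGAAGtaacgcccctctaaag
Rpl15 (chr14:18271026-18271065, minus strand): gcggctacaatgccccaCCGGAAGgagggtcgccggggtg
Rpsa (chr9:120127561-120127600, plus strand): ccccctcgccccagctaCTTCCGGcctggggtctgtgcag
A match says that these letters are present and nothing about binding, and the word is absent from the entries of Rpl12 and Rpl27.

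Library totals ran from 7147301 to 17624884 counts, and the 84 genes took 1.28% to 2.58% of them. Lin28a stood at 328 ± 39.6, 351 ± 46.5, 360 ± 56.5 and 531 ± 123 CPM in global lungs at E12.5, E14.5, E16.5 and E18.5, at 481 ± 97.9 CPM in mesenchymal and 952 ± 339 CPM in epithelial Lin28A lungs, and at 0.447 to 1.64 CPM on average in the control groups (SD). CPM is the count scaled by library size after TMM normalization. Counts per gene were very uneven for proteins made in matched amounts, in the 83 genes tested from a mean of 8.3 counts for Rps27rt and 15.5 for Rpl23a to 23978 for Rpl4, so levels are compared between libraries and not between genes. Of the 50-base words of these transcripts, a share from 0% to 95.1% (Rpl35) also occurs in another annotated gene. Reads from such words may match more than 1 gene, and how the authors' counting treated such reads is not given in the sources used here. In whole lungs, fewer cells of a type and less RNA per cell cannot be told apart.

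The summed level of the 84 genes was 15279, 18210 and 15731 CPM in E12.5 global lungs, against 15530, 18725 and 19477 CPM in E12.5 controls. At E14.5 it was 14952, 17105, 16974 and 16839 CPM in global lungs, against 17993, 19203 and 21742 CPM in controls. At E16.5 it was 17796, 19169 and 19381 CPM in global lungs and 15844, 19694 and 17415 CPM in controls. Every global library lay below every control at E14.5, and the groups overlapped at E12.5 and E16.5. At E18.5 it was 19901, 22777, 20788, 24719 and 21787 CPM in global lungs, 19512 and 22061 CPM in mesenchymal and 16860, 17757 and 15494 CPM in epithelial Lin28A lungs, and 16122, 14949, 12899, 15631 and 19070 CPM in controls. The global and mesenchymal libraries all lay above the 5 controls, and the epithelial libraries lay within their range. The 10 most abundant of the genes, Rpl4 first, held 52.4% of the summed level, so the sum follows them.

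**Figure D1:**
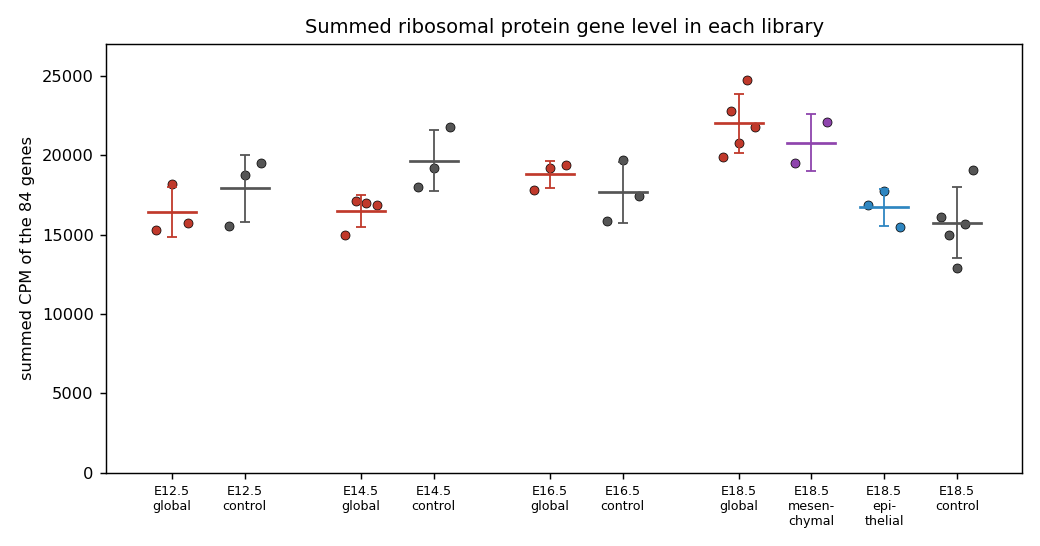
Summed CPM of the 84 genes in each library (points), by embryonic day and group, with the group mean and SD. At E14.5 the 4 global lungs lie at 14952 to 17105 CPM, below the 3 controls, and at E18.5 the 5 global lungs lie at 19901 CPM or above, over the 5 controls.

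In control lungs, no ribosomal protein gene was called between E12.5 and E14.5, and of those called at the 2 later steps all but 1 at each fell, foremost Rpl12, a part of the large-subunit stalk base where elongation factors bind, and Rpl27, another large-subunit gene. From E12.5 to E14.5 none of the 83 genes was called with edgeR's quasi-likelihood test, against 16.7% of all genes tested, with 8 at an unadjusted p under 0.05 and 2 called by DESeq2. Without E12.5 control 1, 2 or 3, it was 2, 2 or 1. In E16.5 against E14.5 controls 23 fell, against 17.8% of all genes, and 1 rose, against 18.1%, with a median log2 fold of -0.19 against -0.01 over all genes. In E18.5 against E16.5 controls 19 fell, against 19.1% of all genes, and 1 rose, against 17.1%, with a median of -0.20 against 0.00 over all genes. At this step the share that fell was near that of all genes. Counting both directions, 28.9% and 24.1% of the 83 genes were called at the 2 steps, below the 35.9% and 36.3% of all genes tested. The first step had 14 calls without E16.5 control 1, in place of 24. The second had 11 without E16.5 control 2, 11 without E16.5 control 3, 13 without E18.5 control 3 and 31 without E18.5 control 5, in place of 20.

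Rpl12 stood at 66.4, 65.7 and 66.8 CPM in E14.5 controls, 29.5, 41.7 and 35.4 CPM in E16.5 controls and 17.97, 16.3, 18.4, 19.7 and 24.1 CPM in E18.5 controls. The 3 stages did not overlap, and the log2 fold was -0.90 ± 0.15 (SE, adjusted p = 2.28e-05) at the first step and -0.87 ± 0.13 (adjusted p = 7.92e-06) at the second. Rpl27 was 33.03, 33.8 and 38.5 CPM in E14.5 controls, 15.9, 17.4 and 19.2 CPM in E16.5 controls and 11.1, 11.2, 10.1, 11.5 and 12.6 CPM in E18.5 controls. Again no stage overlapped the next, with log2 folds of -1.003 ± 0.13 and -0.63 ± 0.12. Rps27a, whose protein is made as a fusion with ubiquitin, fell at both steps (-0.76 ± 0.16 and -0.59 ± 0.15). Rps6, the S6 kinase substrate of the small subunit, and Rps29 fell at the first step (-1.03 ± 0.23 and -1.004 ± 0.25), and the large-subunit genes Rpl15 and Rpl14 fell at the second (-0.70 ± 0.12 and -0.57 ± 0.15). Against this, Rps19, the small-subunit protein mutated in Diamond-Blackfan anaemia, rose from E14.5 to E16.5 (0.88 ± 0.19, adjusted p = 0.000546), and Rps27 from E16.5 to E18.5 (0.66 ± 0.23, adjusted p = 0.0244). The Rps27 call was lost without E16.5 control 1 or 3 or E18.5 control 1 or 2, at adjusted p from 0.0668 to 0.0915.

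With global Lin28A at E12.5, no ribosomal protein gene passed the test against controls. None of 83 was called with edgeR's quasi-likelihood test, against 0.224% of all genes, or with DESeq2, and 5, all lower, had an unadjusted p under 0.05. The median log2 fold was -0.14, against -0.00 over all genes, and 11 of the 83 folds were above 0.

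At E14.5 the global lungs had lower levels of a few abundant ribosomal protein mRNAs, among them those of the stalk proteins Rplp0 and Rplp1, and a higher level of Rps19. Of 83 genes, 8 fell, against 8.44% of all genes, and 1 rose, against 4.44%. The share that fell was thus near that of all genes, and the share that rose was lower than that of all genes. The median log2 fold was -0.21, against -0.04 over all genes. The 599 other tested short transcripts had a median of -0.24, with 89 lower and 13 higher. Rplp0 was 850.5, 889.9, 923 and 960.2 CPM in global lungs, against 1244, 1152 and 1262 CPM in controls (log2 fold -0.43 ± 0.10, adjusted p = 0.00438). Rplp1 was 409, 462, 487 and 519.5 CPM in global lungs, against 715, 631 and 759.5 CPM in controls (-0.58 ± 0.14, adjusted p = 0.00435). Neither gene's groups overlapped.

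Other lower genes at E14.5 included Rpl39 (-0.58 ± 0.16), Rps4x (-0.45 ± 0.11), Rpl41 (-0.40 ± 0.13), Rps15 (-0.35 ± 0.11) and Rpsa, the laminin receptor precursor of the small subunit (-0.40 ± 0.13, adjusted p = 0.0417). Rpsa was 79.8, 91.9, 90.8 and 94.8 CPM in global lungs, against 124, 103 and 126 CPM in controls, with no overlap. Without control 3, 3 genes were called in place of 9, and Rpl39 and Rps4x were at adjusted p of 0.188 and 0.0719. That control had the highest summed level of the stage and the markers of another organ. The 8 thymus markers summed to 379 CPM in it, against at most 8.87 CPM in the other 6 libraries of the day, and the 8 leukocyte markers to 218 CPM, against at most 141 CPM. In the other group, the 6 kidney tubule markers summed to 557 CPM in global 4, against 56.0 to 63.4 CPM in the other 6 libraries, and without global 4 the count was 7 in place of 9. The part of these markers in the result was not tested. The Rpsa call was lost without any 1 of control 1, control 3 or the 4 global libraries, at adjusted p from 0.0577 to 0.171. Those of Rpl41 and Rps15 were lost without control 2, control 3 or global 1, 3 or 4, at adjusted p from 0.0656 to 0.195. The 5 lung epithelium markers summed to 600.1 to 1151 CPM in global lungs and 2133 to 2436 CPM in controls, and their part was not tested either.

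Rps19 was 187, 211, 161 and 156 CPM in E14.5 global lungs, against 116, 101 and 118 CPM in controls. The groups did not overlap, and the log2 fold was 0.68 ± 0.18 (adjusted p = 0.0104, or 0.0561 without control 2). In controls of the other stages it was 121, 134 and 146 CPM at E12.5, 148, 260.0 and 209 CPM at E16.5, and 259.8, 243, 219, 165 and 293 CPM at E18.5, so every E14.5 control lay below them all. At the other stages the global fold of Rps19 was -0.02, -0.02 and 0.08, and none was called, with signs at E12.5, E16.5 and E18.5 that changed without single libraries.

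At E16.5 the global lungs held 15 ribosomal protein mRNAs at higher levels than controls, with Rps6, Rpl27, Rpl12, Rps29 and Rpl36a in front. That is 15 of 83 higher, against 17% of all genes, and 0 lower, against 20.1%, so the share that rose was near that of all genes. With edgeR's quasi-likelihood test 1 gene had an unadjusted p under 0.05 on the lower side, and DESeq2 gave 16 higher and 0 lower. The median log2 fold was 0.10, against -0.01 over all genes. Rps6 was 4.6, 5.84 and 5.60 CPM in global lungs, against 2.45, 3.42 and 2.67 CPM in controls (0.91 ± 0.23, adjusted p = 0.00212). Rpl27 was 32.4, 31.3 and 33.6 CPM in global lungs, against 15.9, 17.4 and 19.2 CPM in controls (0.89 ± 0.13, adjusted p = 2.65e-06). Rpl12 was 57.1, 65.9 and 62.5 CPM in global lungs, against 29.5, 41.7 and 35.4 CPM in controls (0.80 ± 0.15, adjusted p = 7.53e-05). No global library of these genes overlapped a control. Of the 50-base words of Rps6, Rpl27 and Rpl12, 84.6%, 38.8% and 49.4% also occur in another annotated gene. Rps6 averaged 59 counts per library.

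Rps29 (0.77 ± 0.26) and Rpl36a (0.72 ± 0.17), an X-linked large-subunit gene, were higher by about as much. Rpl5 and Rpl11, the 5S RNA partners that can bind Mdm2 outside the ribosome, were also higher (0.55 ± 0.18 and 0.51 ± 0.18). Rps29, Rpl5 and Rpl11 each lost their call without 1 or another library, at adjusted p from 0.0563 to 0.196. Both Rps29 and Rpl5 did so without control 1, control 2 or global 3, and Rpl11 without control 1 or global 3. Controls of this day are also those of the E16.5 over E14.5 control step, so that step and this comparison are not independent. Side by side, the log2 folds were -1.03 and 0.91 for Rps6, -1.003 and 0.89 for Rpl27, and -0.90 and 0.80 for Rpl12. The global lungs of E16.5 thus lay in or near the E14.5 range of both groups in these 3 genes.

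At E18.5 the rise under global Lin28A took in most of the ribosome. Of 83 genes, 70 rose, against 32.1% of all genes, and 0 fell, against 32.7%. On the lower side edgeR's quasi-likelihood test gave 0 genes with an unadjusted p under 0.05, and DESeq2 gave 68 higher and 0 lower. The folds of the 70 ran from 0.26 to 1.79 on the log2 scale, and the median over the 83 was 0.56, against -0.01 over all genes. Both subunits took part, with 40 of 46 core large-subunit genes (median 0.54) and 26 of 31 core small-subunit genes (median 0.51) higher. Leaving out any 1 library gave 64 to 71 calls.

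Rpl12 moved most. It was 69.3, 82.4, 60.8, 60.2 and 63.4 CPM in E18.5 global lungs, against 17.97, 16.3, 18.4, 19.7 and 24.1 CPM in controls (log2 fold 1.79 ± 0.12, adjusted p = 2.18e-13). Its lowest global library lay far above its highest control. Rpl27 was 24.1, 27.3, 27.3, 33.4 and 29.0 CPM in global lungs, against 11.1, 11.2, 10.1, 11.5 and 12.6 CPM in controls (1.32 ± 0.10). Rps27a was 26.0, 26.3, 25.1, 27.3 and 29.6 CPM in global lungs, against 9.47, 10.4, 9.46, 10.4 and 14.46 CPM in controls (1.30 ± 0.13). Rps29 was 5.61, 5.65, 5.00, 6.59 and 6.09 CPM in global lungs, against 2.09, 1.93, 1.67, 2.26 and 3.86 CPM in controls (1.27 ± 0.21). In all 3 genes the groups stood apart, with control 5 the highest control. Rpl21 followed at 1.09 ± 0.12, and Rpl36a at 1.01 ± 0.14.

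Among the subunit proteins known for further roles, Rpsa was 107, 121, 109, 138 and 116 CPM in E18.5 global lungs, against 60.02, 57.0, 48.4, 72.1 and 75.8 CPM in controls (0.91 ± 0.11). Rpl11 (0.90 ± 0.14), Rpl5 (0.77 ± 0.14) and Rps6 (0.76 ± 0.18) rose by similar amounts. Rplp0, widely used as a reference gene in PCR, rose by less. It was 1117, 1258, 1142, 1271 and 1131 CPM in global lungs, against 886.5, 854, 748, 898 and 1084 CPM in controls (0.41 ± 0.08, adjusted p = 0.000105), and the groups did not overlap.

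Of the 13 genes not called at E18.5, Rpl3, Rpl26, Rps18, Rps2, Rpl34 and Rpl29 had a wide spread between libraries and are described further on. The others were Rpl30 (0.43 ± 0.21, adjusted p = 0.0745), Rps27rt (0.30 ± 0.40), Rpl36al (0.16 ± 0.14), Rpl37a (0.10 ± 0.10), Rps19 (0.08 ± 0.14), Rps28 (-0.04 ± 0.25) and Rps27 (-0.22 ± 0.19). Rpl30 was called without control 5 (adjusted p = 0.0471) or global 2 (0.0447) and when only the 2 groups were fitted (0.014). Rpl37a was 91.8, 102, 88.6, 107 and 91.8 CPM in global lungs and 99.0, 98.9, 69.8, 80.9 and 102 CPM in controls, and the groups overlapped. Rps19 was 181, 288, 268, 228 and 285 CPM in global lungs and 259.8, 243, 219, 165 and 293 CPM in controls, and the groups overlapped.

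**Figure D2:**
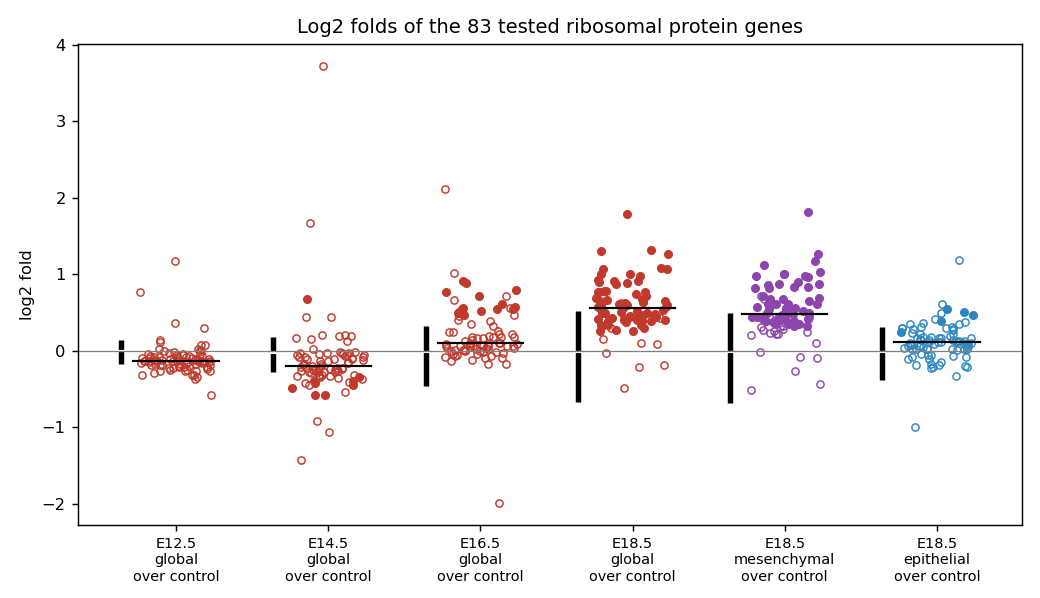
Log2 folds of the 83 tested genes in the 6 comparisons with controls, filled where called at an adjusted p under 0.05 and open elsewhere. Black lines are medians over the genes, and black bars beside them run from the lower to the upper quartile of all 18319 genes tested, with a white tick at the median. Genes shift to the positive side in E18.5 global lungs (median 0.56) and E18.5 mesenchymal lungs (median 0.47), and stay near 0 in E18.5 epithelial lungs (median 0.11).

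Markers of several cell types moved with the groups. The 5 lung epithelium markers summed to 1518 to 4011 CPM in E18.5 global lungs, 2410 and 5367 CPM in mesenchymal, 8845 to 13234 CPM in epithelial Lin28A lungs and 12936 to 18489 CPM in controls. The 4 endothelium markers summed to 847 to 1038 CPM in global, 920 and 1116 CPM in mesenchymal and 1822 to 2511 CPM in epithelial lungs, and 1987 to 2875 CPM in controls. The 8 leukocyte markers summed to 98.3 to 138 CPM in global, 129 and 159 CPM in mesenchymal and 396 to 655 CPM in epithelial lungs, and 489 to 980 CPM in controls. The 4 lung mesenchyme markers summed to 1482 to 1907 CPM in global, 1458 and 1640 CPM in mesenchymal and 1504 to 1636 CPM in epithelial lungs, and 1654 to 2407 CPM in controls. Of these 4 lists no marker was at 0 in any library. The 12 erythroid markers measured summed to 1297 to 3277 CPM in global, 1855 and 2350 CPM in mesenchymal and 3494 to 24530 CPM in epithelial lungs, and 4343 to 9886 CPM in controls, with Hba-x and Hbb-bh1 at 0 in some libraries. The 8 cardiomyocyte markers summed to 121 to 193 CPM in global, 156 and 162 CPM in mesenchymal and 192 to 343 CPM in epithelial lungs, and 284 to 1061 CPM in controls, with Nppa at 0 in some libraries. Global and mesenchymal lungs thus lay below all controls in the epithelium, endothelium, leukocyte, erythroid and cardiomyocyte lists. At E16.5 the epithelium markers summed to 1386 to 2026 CPM in global lungs and 7356 to 10510.3 CPM in controls, and the erythroid markers to 3538 to 4374 CPM in global lungs and 6651 to 14715 CPM in controls. Mitochondrially encoded transcripts took 2.05% to 2.31% of counts in E18.5 global lungs, 1.92% and 2.01% in mesenchymal ones, 2.37% to 2.504% in epithelial ones and 1.38% to 1.93% in controls. The 6 hepatocyte markers summed to 868 CPM in E18.5 control 1, against at most 27.0 CPM in the other controls of that day. Among the Lin28A lungs of E18.5 the highest sum was 78.2 CPM, in mesenchymal 1. At E12.5 the 8 cardiomyocyte markers summed to 65.4 to 2132 CPM in global lungs and 621 to 2548 CPM in controls. The part of any of these markers or transcripts in the results was not tested.

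Whether the difference between global and control lungs changed with stage was tested as an interaction. From E12.5 to E14.5 the effect changed for none of the 83 genes, against 0.0437% of all genes with edgeR's quasi-likelihood test, with 3 at an unadjusted p under 0.05 and 0 by DESeq2. From E14.5 to E16.5 it rose for 11, against 4.01% of all genes, and fell for none, against 3.87%, with 2 lower at an unadjusted p under 0.05 and 1 lower by DESeq2. From E16.5 to E18.5 it rose for 15, against 7.04%, and fell for none, against 3.64%, with 1 lower at an unadjusted p under 0.05 and 0 by DESeq2. The median changes were -0.08, 0.37 and 0.43, against -0.02, 0.02 and 0.06 over all genes.

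Rpl12 gained at both later steps (0.90 ± 0.20 and 0.99 ± 0.19). Rpl27 gained by E16.5 (0.91 ± 0.17, adjusted p = 0.00174), and Rps29 (1.19 ± 0.34), Rps6 (1.03 ± 0.30) and Rpl36a (0.76 ± 0.23) did too at adjusted p of 0.031, 0.0331 and 0.0391. Between E16.5 and E18.5 Rpl15 gained 0.73 ± 0.18 (adjusted p = 0.00672), Rps27a 0.70 ± 0.21, Rpsa 0.65 ± 0.18 and Rpl35 0.59 ± 0.19. Rpl15, a large-subunit protein, was 68.3, 70.7, 65.6, 80.2 and 83.7 CPM in E18.5 global lungs, against 41.6, 35.3, 31.3, 38.9 and 47.8 CPM in controls, and the groups did not overlap.

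These interaction counts were unstable. For E16.5 over E14.5 they were 5 without E14.5 control 3, E14.5 global 1 or E16.5 global 3, 6 without E16.5 control 1 or E16.5 global 2, and 7 without E14.5 control 1, E14.5 global 2 or E16.5 global 1. For E18.5 over E16.5 they ran from 4 without E16.5 control 2 or 3 to 38 without E18.5 control 5. Other libraries gave 5 (E16.5 global 1), 7 (E16.5 global 3, E18.5 control 3), 8 (E18.5 control 2, E18.5 global 4) and 9 (E16.5 global 2, E18.5 control 1). Of the genes named, Rps29, Rps6, Rpl36a, Rps27a, Rpsa and Rpl35 lost their call without 1 or another library, at adjusted p from 0.0502 to 0.144, and Rpl12, Rpl27 and Rpl15 did not.

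Mesenchymal Lin28A gave much the same levels as global Lin28A, and epithelial Lin28A gave levels near those of controls. Both were set against the same 5 controls as the global lungs, so the 3 comparisons are not independent. With mesenchymal Lin28A 57 of 83 genes rose, against 27.4% of all genes, and 0 fell, against 26.9%, with a median log2 fold of 0.47. On the lower side 0 genes had an unadjusted p under 0.05, and DESeq2 gave 52 higher and 0 lower. With epithelial Lin28A 5 rose, against 18% of all genes, and 0 fell, against 15.2%, with a median of 0.11. Here 1 gene had an unadjusted p under 0.05 on the lower side, and DESeq2 gave 5 higher and 0 lower.

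Rpl12 was 64.1 and 72.6 CPM in mesenchymal Lin28A lungs and 16.8, 26.4 and 20.02 CPM in epithelial ones, against 17.97, 16.3, 18.4, 19.7 and 24.1 CPM in controls. The mesenchymal libraries lay far above the controls (1.82 ± 0.14, adjusted p = 5.12e-11) and the epithelial ones overlapped them. Rps27a was 24.5 and 27.9 CPM in mesenchymal and 12.498, 14.6 and 13.2 CPM in epithelial lungs, against 9.47, 10.4, 9.46, 10.4 and 14.46 CPM in controls (mesenchymal 1.26 ± 0.16). Rpl27 (1.18 ± 0.13), Rps29 (1.12 ± 0.26) and Rps12 (1.03 ± 0.14) came next with mesenchymal Lin28A.

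Among the 5 genes called with epithelial Lin28A, Rpl27 had the largest log2 fold. It was 16.6, 16.2 and 16.53 CPM in those lungs, against 11.1, 11.2, 10.1, 11.5 and 12.6 CPM in controls (0.54 ± 0.12, adjusted p = 0.000669), without overlap. Rpl28 (0.51 ± 0.14, adjusted p = 0.00464) and Rpl10a (0.47 ± 0.08, adjusted p = 3.68e-05), both large-subunit genes, also rose. So did Rpl36 (0.39 ± 0.15, adjusted p = 0.0385) and Rpl7l1 (0.24 ± 0.09, adjusted p = 0.0266). Those last 2 were lost without most single libraries, Rpl36 without any of the 3 epithelial libraries or controls 2, 3 or 4 (adjusted p 0.0631 to 0.0982) and Rpl7l1 without epithelial 2 or 3 or controls 1, 2 or 3 (0.0561 to 0.0928). The count of 5 was 3 without control 2 or epithelial 3, and 17 without control 5. With mesenchymal Lin28A it was 29 without mesenchymal 2 in place of 57, where the lone library left was assumed to vary like the other groups.

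The direct contrasts were made on the same lungs. In global over mesenchymal Lin28A lungs 0 of 83 genes were called with edgeR's quasi-likelihood test, against 0.0218% of all genes, with 0 at an unadjusted p under 0.05 and 0 by DESeq2. The median log2 fold was 0.07, and the median SE of a gene was 0.15, so small differences would not be seen with 2 mesenchymal libraries. In global over epithelial lungs 60 were higher, against 31.3% of all genes, and 1 was lower, against 31.8%, with a median of 0.47. In epithelial over mesenchymal lungs 43 were lower, against 26.8%, and 1 was higher, against 26.5%, with a median of -0.42. Without mesenchymal 2 that count was 18 in place of 44.

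Rpl12 differed by 1.67 ± 0.14 in global over epithelial lungs and by -1.70 ± 0.16 in epithelial over mesenchymal lungs. Rps29 (1.22 ± 0.25 and -1.06 ± 0.29), Rpl36a (1.18 ± 0.16 and -0.998 ± 0.19) and Rps13 (1.07 ± 0.15 and -1.06 ± 0.18) followed. Rps13 was 24.03, 24.2, 20.1, 23.0 and 26.2 CPM in global, 20.3 and 26.3 CPM in mesenchymal and 11.2, 12.3 and 9.92 CPM in epithelial lungs, and 17.2, 17.7, 12.6, 12.3 and 11.4 CPM in controls. The epithelial libraries lay below all global and mesenchymal ones. Rps19 went the other way, at 301, 324 and 290.2 CPM in epithelial against 172 and 220.2 CPM in mesenchymal lungs (0.64 ± 0.21, adjusted p = 0.0126, or 0.167 without mesenchymal 1). Rps27 was lower in global than in epithelial lungs (-0.51 ± 0.22, adjusted p = 0.0396), and that call was lost without global 3 or 5 or epithelial 1 or 2, at adjusted p from 0.053 to 0.136. Rpl29 was lower in epithelial than in mesenchymal lungs (-1.72 ± 0.72, adjusted p = 0.0442), but the fold was -0.32 without mesenchymal 2, and the call was also lost without any of the 3 epithelial libraries (adjusted p 0.0833 to 0.09).

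**Figure D3:**
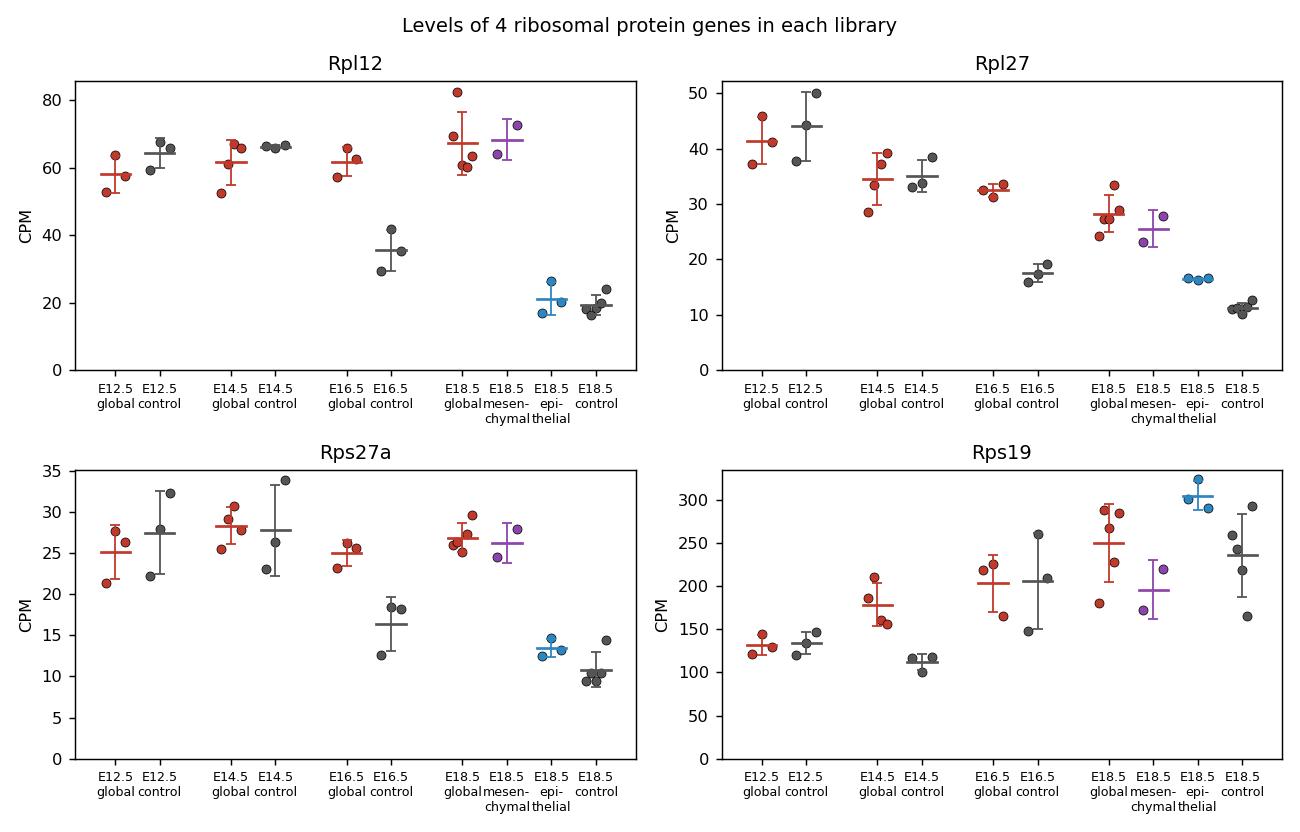
CPM of Rpl12, Rpl27, Rps27a and Rps19 in each library (points), by embryonic day and group, with the group mean and SD. In Rpl12 the controls step down to 35.5 CPM at E16.5 and 19.3 CPM at E18.5 on average, while global lungs average 61.8 and 67.2 CPM, and Rps19 shows a global mean above the control mean without overlap at E14.5 only.

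The paralogues were set beside their core partners. Rpl22l1, a paralogue of the large-subunit protein Rpl22, was 38.7, 47.0, 34.9, 46.6 and 45.5 CPM in E18.5 global lungs, against 29.2, 22.4, 20.5, 23.3 and 30.1 CPM in controls (0.77 ± 0.14, adjusted p = 2.99e-05), and Rpl22 rose by 0.61 ± 0.11. Rps27l, a small-subunit paralogue and known p53 target, rose by 0.64 ± 0.14 (adjusted p = 0.000236), whereas its partner Rps27 was at -0.22 ± 0.19 and was not called. The 2 folds were not tested against each other. Rpl36a rose by 1.01 ± 0.14 and its autosomal copy Rpl36al was at 0.16 ± 0.14 (adjusted p = 0.322). Rpl36al was 27.5, 32.9, 30.3, 35.2 and 36.9 CPM in global lungs and 30.01, 28.9, 23.9, 28.2 and 35.3 CPM in controls, and the groups overlapped.

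Rpl7l1, known in human cells as a factor in assembly of the large subunit, had a larger fold than its partner Rpl7, a difference that was not tested. It was 172, 192, 167, 185 and 178 CPM in E18.5 global lungs, against 83.6, 79.4, 85.2, 97.0 and 101 CPM in controls (1.00 ± 0.07, adjusted p = 2.22e-12), while Rpl7 was at 0.33 ± 0.10 (adjusted p = 0.00525). At E16.5 it was 186, 185 and 184 CPM in global lungs, against 121, 126 and 134 CPM in controls (0.54 ± 0.10, adjusted p = 4.52e-05), with no overlap. Rps19bp1, also nucleolar, rose by 0.66 ± 0.09 at E18.5 and by 0.47 ± 0.12 at E16.5. Rps27rt, a copy of Rps27 with 91.1% of its words shared, lay at 0.121 to 1.34 CPM over all libraries and was called in none of the 6 comparisons with controls.

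The remaining core partners rose in E18.5 global lungs by 0.56 ± 0.15 (Rps3a1), 0.47 ± 0.13 (Rpl39) and 0.30 ± 0.09 (Rpl10), and by 0.49 ± 0.19 (Rps3a1) and 0.32 ± 0.11 (Rpl10) with mesenchymal Lin28A, where Rpl39 was at 0.31 ± 0.17 (adjusted p = 0.129). With mesenchymal Lin28A the calls of Rps27l, Rpl10, Rps3a1, Rpl5 and Rplp0 were lost without mesenchymal 2, at adjusted p from 0.0789 to 0.223, and that of Rps3a1 also without control 3 (0.0611). Of subunits listed under other symbols, Rack1 rose in E18.5 global lungs (0.58 ± 0.08), while Fau was at 0.17 ± 0.19 and was not called.

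At E16.5 and in the control step before it, calls fell mostly on genes with few counts. The 83 genes were split at the median of their mean CPM over all libraries, a division chosen after the data were seen and given as a description. At E16.5, 14 of the 42 lower-count genes were higher in global lungs (median log2 fold 0.39), against 1 of the 41 higher-count genes (median 0.06). Of all genes tested, 17% were higher there. In E16.5 against E14.5 controls, 20 of the 42 and 3 of the 41 fell (medians -0.46 and -0.13), against 17.8% of all genes. Both comparisons use the E16.5 controls, so they are not independent. At E18.5 the lists were less apart, with 32 and 38 genes higher in global lungs (medians 0.70 and 0.46), against 32.1% of all genes. In E14.5 global lungs 7 of the 8 genes that fell were among the 41. Split by shared sequence, the E18.5 global medians were 0.64 for the 29 genes with at least 50% of their words in other genes and 0.48 for the other 54. In E16.5 global lungs 8 of the 29 and 7 of the 54 were higher (medians 0.22 and 0.08). From E14.5 to E16.5 in controls, 12 of the 29 and 11 of the 54 fell (medians -0.34 and -0.16). Which of the 2 splits the calls follow was not tested.

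Other gene groups of ribosome making showed where the ribosomal proteins stood. In E18.5 global lungs 24 of 25 ribosome assembly and nucleolar genes rose and 0 fell (median 1.38), 65 of 78 mitochondrial ribosomal protein genes rose and 1 fell (median 0.55), and 11 of 19 other translation genes with a TOP mRNA rose and 3 fell (median 0.32). The 599 other short transcripts, of at most 1000 bases, had a median of -0.01, with 187 higher and 212 lower. With mesenchymal Lin28A these medians were 1.32, 0.50, 0.27 and -0.11, and with epithelial Lin28A 0.20, 0.06, -0.05 and -0.09. At E16.5 in global lungs 24 of the 25 assembly genes had already risen (median 0.82), beside 15 of the 83 ribosomal protein genes (median 0.10). At E14.5 the assembly genes had a median of 0.14 with 0 called by edgeR's quasi-likelihood test in global lungs, where the ribosomal protein genes had -0.21. In controls 25 of the 25 assembly genes fell from E14.5 to E16.5 and 24 from E16.5 to E18.5.

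Of 14 regulators of ribosomal protein genes and TOP mRNAs, 7 rose and 1 fell in E18.5 global lungs, 6 rose and 0 fell with mesenchymal and 2 rose and 0 fell with epithelial Lin28A. The shares called, 57.1%, 42.9% and 14.3%, were below those of all genes tested, at 64.8%, 54.3% and 33.2%. Of 12 p53 targets, 9 rose and 1 fell with epithelial Lin28A (median 0.58), 4 rose and 6 fell in global lungs (median -0.24) and 2 rose and 7 fell in mesenchymal lungs (median -0.39). Fewer ribosomal protein genes were called in the epithelial lungs than in either of the others, and no relation between the lists was tested.

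**Figure D4:**
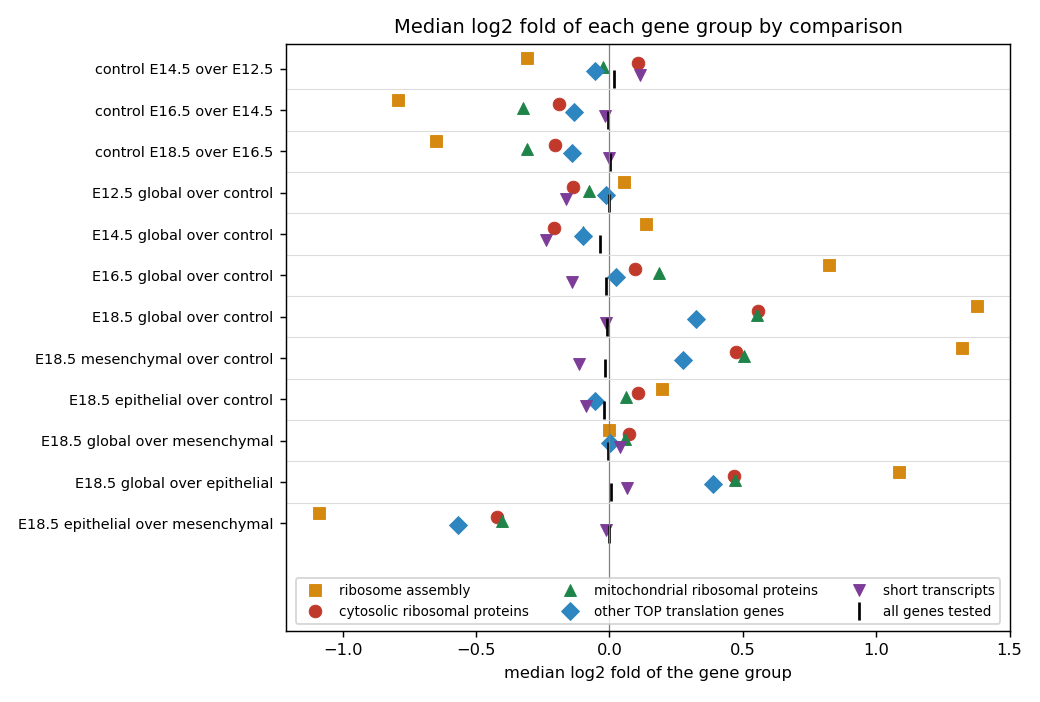
Median log2 fold of each gene group (symbols) in 12 comparisons, control stages first, with the ribosomal protein genes as red circles and all genes tested as black bars. In E18.5 global over control lungs the ribosomal protein genes (0.56) lie beside the mitochondrial ribosomal protein genes (0.55), below the assembly genes (1.38) and above short transcripts (-0.01).

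Among the 83, 6 genes had a wide spread between libraries of a group (biological coefficient of variation over 0.3, against a median of 0.121 over the 83 genes). The limit was chosen after the data were seen. Rpl26 fell on 2 levels, at or below 3.38 CPM in 16 libraries and at or above 61.9 CPM in the other 18, with none in between. In E14.5 global lungs it was 2.998, 2.22, 66.1 and 61.9 CPM, against 1.92, 3.38 and 2.13 CPM in controls. In E16.5 global lungs it was 138.5, 146 and 2.06 CPM, against 64.3, 0.811 and 1.46 CPM in controls. At E18.5 it was 82.7 to 108 CPM in the 5 global lungs, against 77.4, 1.69, 1.11, 65.1 and 161 CPM in controls. Both levels thus occurred within single groups, and Rpl26 passed the test in none of the 6 comparisons with controls.

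Rpl34 lay at or below 26.0 CPM in 15 libraries and at or above 80.9 CPM in 19, and Rpl29 at or below 25.8 CPM in 23 and at or above 47.7 CPM in 11. Rps2 was at or below 10.5 CPM in 6 libraries and at or above 27.7 CPM in 28. These limits mark the widest gap of each gene, which was 18.3-fold for Rpl26, 3.11-fold for Rpl34, 2.64-fold for Rps2 and 1.85-fold for Rpl29. Rpl29 thus had a wide spread without 2 clear levels. In Rpl3 (1.81-fold) and Rps18 (1.62-fold) the widest gap lay above 1 library alone. The genes did not always lie on the same side of their gap in a library. E18.5 control 2 had 1.69 CPM of Rpl26, 106 CPM of Rpl34 and 47.7 CPM of Rpl29. Control 5 was on the high side in all 3 (161, 226 and 57.6 CPM) and control 3 on the low side in all 3 (1.11, 11.8 and 11.4 CPM).

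For each of the 6, the 10 genes whose deviations from group means followed it most closely were looked up by position. Of these 10, 9 lay on the same chromosome for Rps18 and 6 for Rps2 (both chromosome 17), 6 for Rpl3 (chromosome 15), 5 for Rpl34 (chromosome 3), 5 for Rpl29 (chromosome 9) and 2 for Rpl26 (chromosome 11). Those chromosomes hold 3.89% to 7.78% of the genes tested. Over the other 77 genes the median was 1 of 10, with 38 at 0 and 2 at 4 or more, Rpl27 (4) and Rps28 (8, also on chromosome 17). This is a description over libraries that share depth and groups, and its cause was not tested. None of the 6 was among the 70 genes called in E18.5 global lungs, so that count did not rest on them.

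**Figure D5:**
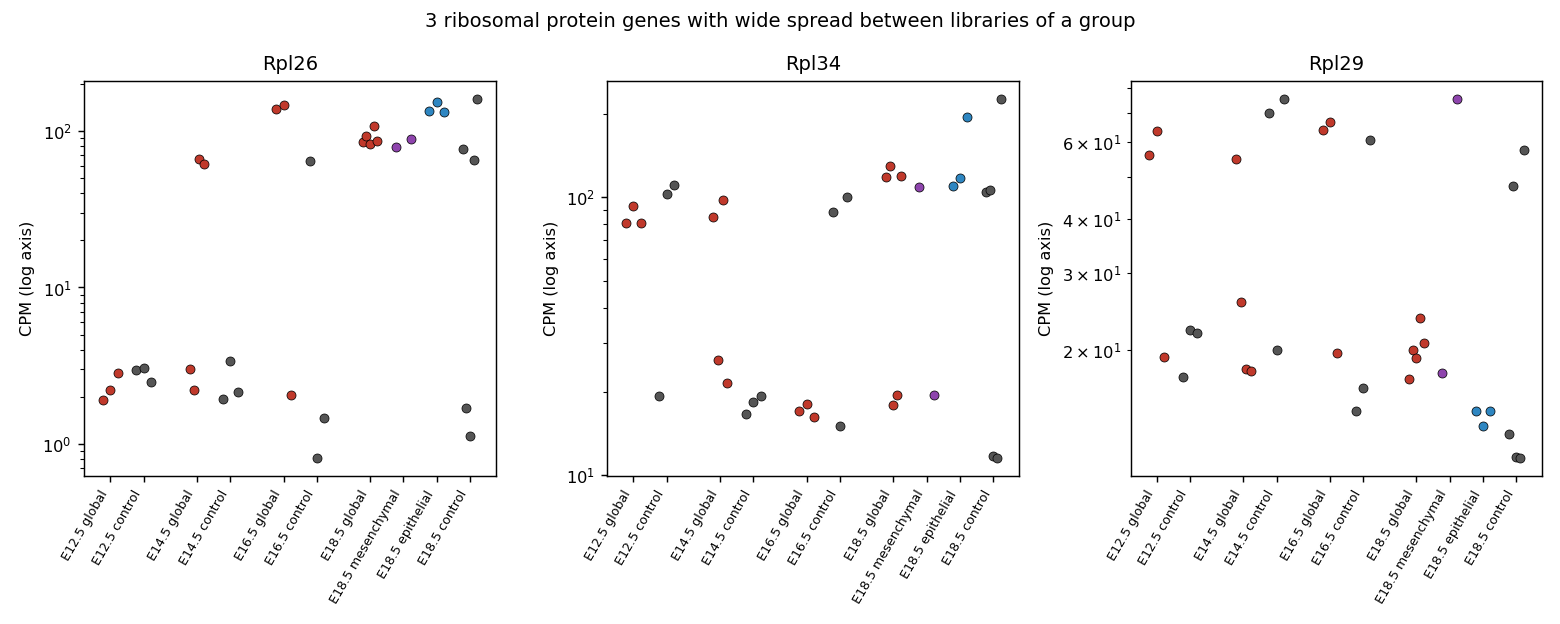
CPM of Rpl26, Rpl34 and Rpl29 in each library (points, log axis), by embryonic day and group. No library lies between 3.38 and 61.9 CPM for Rpl26, between 26.0 and 80.9 CPM for Rpl34 or between 25.8 and 47.7 CPM for Rpl29. The gap of Rpl29 is narrow, at 1.85-fold, and both sides of each gap occur within single groups.

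For Rpl22l1 and Rps27l, the genes with the most alike course of group means were listed, as Pearson's r of mean log2 CPM over the 10 groups. Among the nearest to Rpl22l1 were Arl6ip1 (0.986), Rack1 (0.985), Rpl6 (0.985) and Rpl4 (0.984). The nearest to Rps27l were Rpsa-ps10 (0.980), Ppp1ca (0.974), Atpif1 (0.973), Tssc4 (0.969) and a gene listed by its identifier alone. These values describe 10 group means that share libraries and stages.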

How the data were processed

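Poly(A) RNA-seq in 34 libraries of embryonic mouse lung was analysed from the deposited table of raw counts per Ensembl gene. Per the labels, RNA was extracted with Trizol. The submitters' processing notes name the build GRCm38, the aligner STAR 2.4.2a, HTSeq 0.6.1p1, DESeq2 1.10.1, cutadapt and bcl2fastq 2.17.1.14. Their settings, the annotation and strandedness are not given in the sources used here. Without strand, overlapping antisense genes cannot be told apart. The deposited table of normalized values was not used. One mesenchymal column is headed Wt2 where the title reads Wt1, and was matched by day and replicate number.

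Symbols came from GENCODE M21, which matched 21762 of 21789 identifiers. All 34 libraries were fitted in 1 model with 10 group means in edgeR 4.0.16 (R 4.3.3) with its quasi-likelihood test, TMM scaling and filterByExpr, which kept 18319 genes. Adjusted p is Benjamini-Hochberg over these genes, called under 0.05, in each of 15 comparisons. CPM uses TMM library sizes, and correlations use log2 CPM with a prior count of 2. On simulated counts for E18.5 global over control, 67, 67 and 66 of 18319 genes were changed by 0.5, 1 and 2 on the log2 scale. The fit called 32.8%, 77.6% and 93.9% of them, and 0.011% of unchanged genes. In the data 64.8% of all genes were called, so these shares do not give the power of the comparison itself. Alternatives were DESeq2 1.42.0 (test and size factors), scaling without the ribosomal protein genes, no filter, fits of the compared groups alone, a replicate block, core subunits alone and leaving out each library. No library pair of a group agreed within sampling noise (chi-square per gene from 5.57). This value was 18.4 between E18.5 controls 1 and 2, and 17.5 to 25.0 among E18.5 controls 3 to 5. Between the former and the latter it was 48.6 to 82.8, and the cause was not tested.

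The genes named were the paralogues and their partners, Rpsa, Rps6, Rps19, Rpl5, Rpl11 and Rplp0, and per comparison up to 5 called genes in each direction, by size of the fold. Others were named after their values were seen, to account for small counts. The members, lists and rules were chosen with earlier results of these data known. Sequences are from RefSeq. Some results are not reported here.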

Additional observations from a re-analysis of the deposited data

Results flagged for a closer look

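Of 129 groups of 4 or 5 libraries looked at for these genes, 8 had a library whose gap to its nearest neighbour took up most of the group's range, and chance alone gives about 1 in 20. Of the 8, 4 were E14.5 global 1. Its summed level was 14952 CPM, with the other global lungs at 16839 to 17105 CPM. In that library Rpl3 was at 37.6 CPM (88.1 to 96.8 CPM in the others), Rpl7 at 342 CPM (382 to 389 CPM) and Rps3a1 at 84.8 CPM (179.6 to 181.7 CPM). Rps3a3, an annotated pseudogene copy of Rps3a1, was at 68.8 CPM in the same library, 7.83 CPM in global 2 and at most 0.754 CPM in every other library. In E18.5 control 5 Rps29 was at 3.86 CPM (1.67 to 2.26 CPM in the other controls) and Rps27a at 14.46 CPM (9.46 to 10.4 CPM). Rps15 was at 718 CPM in E14.5 global 2 (622 to 635 CPM in the other global lungs) and at 1118 CPM in E18.5 global 4 (856 to 918 CPM). The causes were not tested.

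The global effect differed between stages for 10 named results. Between E14.5 and E16.5 the log2 fold changed by 1.19 for Rps29, 1.03 for Rps6, 0.91 for Rpl27, 0.90 for Rpl12 and 0.76 for Rpl36a. Between E16.5 and E18.5 it changed by 0.99 for Rpl12, 0.73 for Rpl15, 0.70 for Rps27a, 0.65 for Rpsa and 0.59 for Rpl35.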

How the results depend on the processing

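The median log2 fold of the ribosomal protein genes kept its sign under every scaling, filter and test tried, in all 15 comparisons. Counts of called genes moved by over 1.5 times as follows. Restricted to genes with under 50% shared words (54 tested, chosen after the data were seen), counts were 7 at E16.5 global, 46 at E18.5 global, 3 epithelial, 35 mesenchymal, 12 for control E16.5 over E14.5, 6 and 7 for the later changes of the global effect, 27 for epithelial over mesenchymal and 38 for global over epithelial. That set is smaller than the 83 genes, so lower counts follow from its size as well, as with 46 of 54 beside 70 of 83 at E18.5 global. With no filter on low counts the epithelial count was 3 and the last change 7. With the compared groups alone the epithelial count was 2, control E14.5 over E12.5 1, control E18.5 over E16.5 10, and the later changes 17 and 7. With DESeq2's size factors control E14.5 over E12.5 had 1 call and the last change 7, and the DESeq2 test gave 2 for control E14.5 over E12.5. Beyond the size of the set, the causes of these shifts were not tested.

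Deviations of same-numbered libraries of a stage correlated at -0.146 to 0.291, and those of differently numbered ones at -0.291 to 0.26. At E18.5 the means were 0.065 and -0.017. These values cannot tell whether the numbers mark pairs, and the main model held no replicate block. With the replicate block the epithelial count was 12, control E14.5 over E12.5 2, control E18.5 over E16.5 37 and the last change 25.

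Leaving out 1 library gave counts in global lungs of 0 to 0 (E12.5), 3 to 13 (E14.5), 12 to 16 (E16.5) and 64 to 71 (E18.5), then 3 to 17 epithelial, 29 to 64 mesenchymal, 0 to 2, 14 to 23 and 11 to 31 for the control steps, 0 to 0, 5 to 10 and 4 to 38 for the changes, 18 to 42 for epithelial over mesenchymal, 50 to 66 for global over epithelial and 0 to 0 for global over mesenchymal. Direction was checked for the named genes of each comparison only, and none of those that were called changed direction. Of the printed results that were not called, the sign changed for Rps19 in global lungs at E12.5 (-0.092 to 0.050), E16.5 (-0.21 to 0.18, and 0.0029 with the block) and E18.5 (-0.021 to 0.18), and for Rps28 at E18.5 (-0.17 to 0.087). With the compared groups alone the epithelial call of Rpl28 was lost (adjusted p = 0.0548).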
